A study of Mus musculus with 88 samples.

Results

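Histone-modifying enzymes add or remove acetyl and methyl groups on histone tails. The genes described here were those in the arrays' probe-to-gene table whose current symbol starts with Hdac, Sirt, Kdm, Kmt, Setd or Prmt, or with Kat and a digit, together with Ezh1, Ezh2, Ehmt1, Ehmt2, Crebbp and Ep300. The rule used no measured value. It found 31 genes, all of which had values in all 15 groups and were tested, of 10518 genes tested in all. Members of these families without a usable probe, among them Kdm6b, Crebbp and Ep300, were not analysed here.

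RNA came from the mouse macrophage-like line RAW 264.7, exposed for 1, 2 or 4 h to 100 ng/ml lipopolysaccharide (LPS) with 50 nM isoproterenol (LPS+ISO), to LPS with 10 µM prostaglandin E2 (LPS+PGE2), to LPS alone, to isoproterenol alone (ISO) or to prostaglandin E2 alone (PGE2). Each sample was hybridised on 2-colour oligonucleotide arrays against RNA from time-matched cultures in medium, with both dye orientations. Each group held 3 sets of 2 arrays, and PGE2 at 1 h held 2 sets. The labels name 100 pM lipid binding protein for LPS alone and do not name it for the combinations, do not say whether sets were separate cultures, and do not say whether the medium RNA was shared between treatments. The p-values therefore rest on set-to-set spread alone, which may be technical, and the number of arrays limits their precision. Sets of the same number and time deviated together across treatments, so the groups of one time are not independent repeats of one another. All cells were of this single line, and in bulk RNA a smaller share of cells that express a gene and less of its RNA per cell cannot be told apart.

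Values are log2 ratios of treated over medium RNA, so that −1 means 2-fold lower than in medium. The direction is likely rather than known, because the deposited values do not name the numerator. Its basis is that the median of 14 known LPS target genes lay between 1.83 and 3.29 on the 18 arrays with LPS alone after turning by the dye labels. A gene is said to rise or fall where its adjusted p in limma was below 0.05. Of 9 macrophage markers on the array, 8 had values other than 0 on at least 44 of 88 arrays, and of 20 markers of other cell types 12 did. Ratios carry no level, so these counts do not show how strongly a marker was expressed. After 4 h with LPS, 4 macrophage markers were called higher, 2 were called lower, and Kdr was the single marker of another cell type that was called. The part of these shifts in the results was not tested.

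Acetyl groups on histones are placed by acetyltransferases of the Kat families and removed by the zinc-dependent Hdac enzymes and the NAD-dependent sirtuins. Methyl groups on lysines are placed by SET-domain enzymes such as Ezh2, the catalytic subunit of Polycomb repressive complex 2, and removed by Kdm demethylases, while Prmt enzymes methylate arginines. In macrophages these enzymes take part in switching inflammatory genes on and off after Toll-like receptor signals. Class IIa deacetylases, here Hdac5, Hdac7 and Hdac9, bind MEF2 transcription factors and leave the nucleus when phosphorylated.

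After 4 h with LPS, alone or with a second ligand, many of these genes fell, and few rose. Hdac5 (2.12-fold to 2.25-fold lower) and Hdac9 (1.94-fold to 2.61-fold lower) fell in each of these groups, as did the acetyltransferase Kat6b, Ezh2, the demethylases Kdm2b and Kdm3b and the deacetylase Sirt1. With ISO or PGE2 alone, Hdac9 fell as well at 4 h, while Ezh2, Kat6b and Kdm3b had means between −0.084 and 0.029. No gene of the 31 differed between a combination and LPS alone after adjustment.

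Promoter windows are shown for Ezh2, Hdac5 and Hdac9, because these fell together at 4 h and their windows hold letters of factors linked to them in the literature: E2F for Ezh2, and MEF2 for the class IIa deacetylases. Each window is 300 bases, 250 before and 50 after the annotated start, from RefSeq (GRCm38.p6), 5′ to 3′ on the gene's strand, with the matched letters in capitals. All 3 genes lie on the minus strand, at chr6:47594981-47595280 for Ezh2, chr11:102230123-102230422 for Hdac5 and chr12:34528840-34529139 for Hdac9.
Ezh2: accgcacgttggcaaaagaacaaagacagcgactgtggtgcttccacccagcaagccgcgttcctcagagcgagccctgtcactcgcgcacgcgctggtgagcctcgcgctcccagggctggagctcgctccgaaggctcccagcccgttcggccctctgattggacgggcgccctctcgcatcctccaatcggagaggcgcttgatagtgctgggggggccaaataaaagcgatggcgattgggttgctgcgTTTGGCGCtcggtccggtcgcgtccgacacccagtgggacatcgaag
Hdac5: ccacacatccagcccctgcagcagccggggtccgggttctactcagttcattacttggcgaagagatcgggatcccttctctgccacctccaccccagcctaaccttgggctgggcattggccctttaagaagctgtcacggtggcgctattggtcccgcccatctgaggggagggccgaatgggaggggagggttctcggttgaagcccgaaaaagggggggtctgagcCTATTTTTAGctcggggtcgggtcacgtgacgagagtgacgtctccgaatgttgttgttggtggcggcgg
Hdac9: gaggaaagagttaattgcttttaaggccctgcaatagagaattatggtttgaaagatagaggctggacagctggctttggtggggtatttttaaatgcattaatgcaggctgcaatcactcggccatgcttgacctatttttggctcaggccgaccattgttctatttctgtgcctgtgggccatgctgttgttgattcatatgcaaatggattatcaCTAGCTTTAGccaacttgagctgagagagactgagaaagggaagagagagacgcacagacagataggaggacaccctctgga

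Both strands were searched. The E2F letters TTTCGCGC, TTTGGCGC, TTTCCCGC or TTTGCCGC occurred in 2.26% of 32851 windows, and among the 31 genes in those of Ezh2, 3 bases after the start, and Kat2a. The MEF2 letters, CTA, any 4 bases and TAG, occurred in 3.69% of windows and in those of Hdac2, Hdac5 and Hdac9, beginning 20 bases before the start in Hdac5 and 32 bases before it in Hdac9. The central bases of the Hdac9 match include G and C, which the usual MEF2 form does not have. The NF-kB letters, GGG, any 2 bases and then TTTCC or TTCCC, occurred in 3.24% of windows and in those of Hdac9, Setdb1 and Sirt2, and the cyclic AMP response letters TGACGTCA in 1.79% of windows and in none of these genes. Windows were at hand for 26 of the 31 genes, 37 windows in all. A match describes letters and is no evidence of binding.

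At 1 h, 1 of the 31 genes was called with LPS+ISO, where 7.43% of all genes were called (2 with the replicate set as a block), 2 with LPS+PGE2 (7.68% of all genes) and 2 with LPS (9.48%). At 2 h the counts were 3 with LPS+ISO (13.9% of all genes), 2 with LPS+PGE2 (13.3%) and 3 with LPS (15.9%). At these times 3.23 to 9.68% of the 31 genes were called, which is 1 to 3 genes, and a difference from the shares of all genes was not tested. Without set 1 the counts at 2 h were 7 with LPS+ISO, 5 with LPS+PGE2 and 6 with LPS, without set 2 they were 2, 3 and 1, and without set 3 no gene was called at 1 h with either combination and 1 with LPS. For these counts the shares of all genes are not given here. At 4 h, 16 of 31 genes (51.6%) were called with LPS+ISO, 14 lower and 2 higher, against 30.0% of all genes, 15.6% lower and 14.4% higher. With LPS+PGE2 it was 18 (58.1%), 15 lower and 3 higher, against 31.6% of all genes, 16.5% lower and 15.2% higher. With LPS it was 15 (48.4%), 13 lower and 2 higher, against 30.7% of all genes, 16.4% lower and 14.3% higher. Probes of these genes were at exactly 0 less often (median 8.1% of them per array) than all probes (median 28.3%). Among the 8589 genes with a value other than 0 on at least 44 arrays, the shares called at 4 h were 36.5% with LPS+ISO, 38.2% with LPS+PGE2 and 37.2% with LPS.

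The median of the 31 genes at 4 h was −0.25 with LPS+ISO, −0.24 with LPS+PGE2 and −0.19 with LPS, where the median of all genes was 0. Each array had a median of 0 over its probes, many of them at exactly 0. Among genes with a value other than 0 on at least 44 arrays the median was −0.013 in each of these groups. Without set 3 the counts at 4 h were 8 with LPS+ISO, 9 with LPS+PGE2 and 8 with LPS, and the shares of all genes called were also lower, at 19.3%, 20.6% and 20.3%.

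With ISO alone, no gene of the 31 was called at 1 h (0.903% of all genes, 3 of the 31 at an unadjusted p under 0.05) or at 2 h (1.71%, again 3 unadjusted), and 4 were at 4 h (3.36%), 2 higher (1.87%) and 2 lower (1.48%). With PGE2 alone, none was called at 1 h (0.323%, 3 unadjusted) or at 2 h (0.456%, 2 unadjusted), and 2 were at 4 h (1.14%), 1 higher (0.542%) and 1 lower (0.599%). With the replicate set as a block, the count for PGE2 at 4 h was 1. Without sets 1, 2 and 3 in turn, the 4 h counts were 6, 1 and 2 with ISO and 1, 0 and 1 with PGE2. Scaling each array pair to the same median absolute value gave 1 call for ISO at 2 h, 2 for PGE2 at 2 h and 7 for PGE2 at 4 h. Shares of all genes under these alternatives are not given here, so such counts do not set the 31 genes apart.

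In all, 68 of the 465 gene and group combinations passed the test (11.2% of those of all genes), 57 of them lower (5.46%) and 11 higher (5.73%), and 55 were at 4 h. They fell on 23 genes, and 48.2% of all genes were called in at least 1 of the 15 groups. For 53 of them every array of the group lay on the called side, and 8 were at least 2-fold. Scaling each array pair to the same median absolute value ended 15 of the 68 calls (adjusted p 0.0563 to 0.315): those of Kdm6a at 4 h with LPS+ISO, LPS+PGE2 and LPS, of Hdac8 and Prmt2 with LPS+ISO and LPS+PGE2, of Kmt2a with LPS+ISO and LPS, of Kmt2b and Setd6 with LPS+PGE2, of Sirt2 with LPS, of Prmt3 with LPS and ISO and of Kat2b with ISO. Fitting each group on its own 3 sets kept 10 of the 68, for Ezh2, Hdac5, Hdac9, Kat6b, Kdm2b, Kdm3b, Setd3 and Sirt1 with LPS and for Kmt2a and Setd3 with LPS+PGE2. These 10 were also kept under every other alternative tried. The 12 genes that fell in all 3 groups with LPS at 4 h, where 12.3% of all genes fell in all 3, were Ezh2, Hdac5, Hdac6, Hdac9, Kat6b, Kdm2b, Kdm3b, Kdm4b, Kdm6a, Kmt2a, Setd3 and Sirt1.

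**Figure D1:**
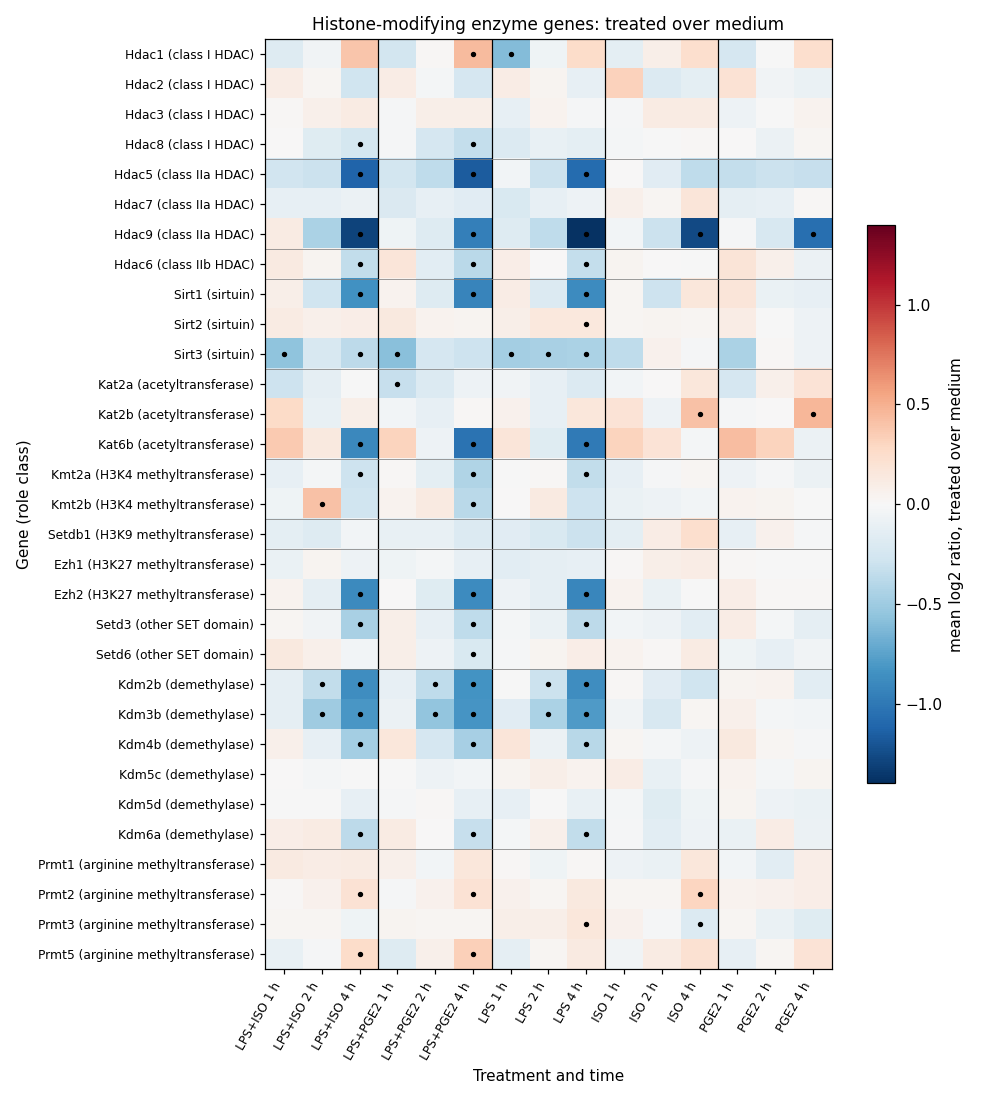
Mean log2 ratio of treated over medium RNA (colour) for the 31 genes (rows, by role) in the 15 groups (columns, by treatment and time); a black dot marks an adjusted p below 0.05. The dots gather in the 4 h columns with LPS, where 12 of the 31 genes are lower in all 3 groups, against 12.3% of all genes.

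**Figure D2:**
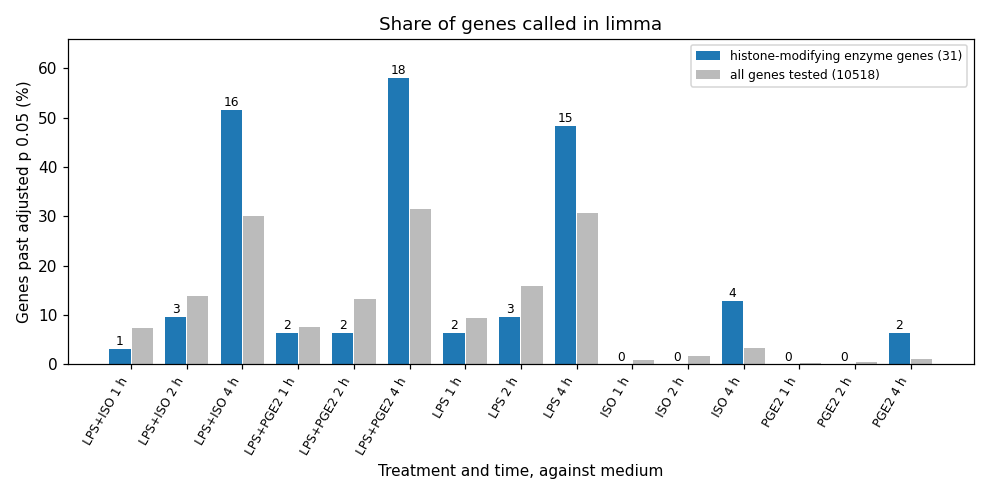
Share of genes called in each group (vertical axis, percent; horizontal axis, treatment and time) for the 31 genes (blue, with their number above the bar) and for all 10518 genes (grey). At 4 h with LPS the blue bars reach 48.4 to 58.1% and the grey bars 30.0 to 31.6%.

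The class IIa deacetylase Hdac5 had ratios of −1.08, −0.90 and −1.37 in the sets with LPS+ISO at 4 h, of −1.24, −0.90 and −1.37 with LPS+PGE2 and of −1.11, −1.01 and −1.12 with LPS. Every set lay below medium, and the groups overlapped one another. The means were −1.12 ± 0.24, −1.17 ± 0.24 and −1.08 ± 0.065 (SD, n = 3 each), that is 2.17-fold, 2.25-fold and 2.12-fold lower than medium, with adjusted p of 7.19e-08, 2.76e-08 and 1.29e-07. With ISO alone the 4 h sets were −0.33, −0.27 and −0.47, and with PGE2 alone −0.21, −0.28 and −0.48. These sets were all below medium too, but the means of −0.36 and −0.32 did not pass the test (adjusted p 0.175 and 0.435).

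Hdac9, another class IIa deacetylase, had 4 h ratios of −1.65, −0.79 and −1.48 with LPS+ISO, of −0.51, −0.72 and −1.64 with LPS+PGE2 and of −1.54, −1.23 and −1.38 with LPS. With ISO alone they were −1.44, −1.15 and −1.19, and with PGE2 alone −1.08, −1.18 and −0.93. All 15 sets lay below medium. The sets with LPS alone were all below those with PGE2 alone, and the other pairs of treatments overlapped. Hdac9 was thus 2.47-fold lower with LPS+ISO (mean −1.30 ± 0.45, SD, n = 3, adjusted p 1.59e-06), 1.94-fold with LPS+PGE2 (−0.96 ± 0.60, 0.00017), 2.61-fold with LPS (−1.38 ± 0.15, 5.75e-07), 2.40-fold with ISO (−1.26 ± 0.15, 0.000103) and 2.09-fold with PGE2 (−1.06 ± 0.13, 0.00178). Without set 3 the call with LPS+PGE2 was lost (mean −0.61, adjusted p 0.117), and the call with PGE2 was lost without set 2 (0.0862) or set 3 (0.135). With LPS+PGE2, 2 of the 6 arrays at 4 h were at exactly 0 for this gene.

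The fall of Hdac9 was a late one. At 2 h its sets were −0.95, 0.15 and −0.52 with LPS+ISO, −0.25, 0.26 and −0.56 with LPS+PGE2 and −1.0, 0.13 and −0.17 with LPS. Set 2 was above medium and set 1 below it in each of these, and no call was made (adjusted p 0.153, 0.714 and 0.275). A test of whether each combination departs from the sum of LPS and the second ligand gave Hdac9 an unadjusted p of 0.00299 for LPS+ISO and 0.000918 for LPS+PGE2, and adjusted p of 0.407 and 1, so neither passed. In these tests 0.0856% and 0.00951% of all genes were called, and none of the 31. The third class IIa gene, Hdac7, had values other than 0 on 56 of 88 arrays and was called in no group.

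Of 4 class I deacetylases, enzymes found mostly in nuclear corepressor complexes, 1 was lower with LPS+ISO at 4 h (15.6% of all genes lower), 1 was lower (16.5%) and 1 higher (15.2%) with LPS+PGE2, and none was called with LPS (30.7% of all genes called in either direction; Hdac1 had the lowest adjusted p there, 0.277). Hdac8, which also deacetylates cohesin, had 4 h ratios of −0.41, −0.14 and −0.20 with LPS+ISO and of −0.40, −0.19 and −0.41 with LPS+PGE2. All were below medium, and the means of −0.25 and −0.33 passed (adjusted p 0.0337 and 0.00434). The call with LPS+ISO was lost with the replicate set as a block (0.0632) and without any single set (0.0697 to 0.174), and that with LPS+PGE2 without set 3 (0.135). Hdac1 had 0.51, 0.22 and 0.60 with LPS+PGE2 at 4 h (mean 0.44, adjusted p 0.034, 1.36-fold higher). Its sets were all above medium with LPS+ISO (0.43, 0.18 and 0.56) and LPS (0.29, 0.15 and 0.32) as well, where the test was not passed (0.0677 and 0.277). Without set 2 or set 3 the adjusted p with LPS+PGE2 was 0.101 and 0.317.

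At 1 h with LPS, Hdac1 was called lower, with sets of −1.72, −0.063 and −0.036 (mean −0.61 ± 0.97, SD, n = 3, adjusted p 0.0128). Set 1 stood far below the others, and without it the mean was −0.049 (adjusted p 0.905). The group's mean was −0.69 with the treated RNA in Cy5 and −0.52 with it in Cy3. Hdac3, the deacetylase of the NCoR and SMRT complexes, was called in no group. Its 4 h sets were 0.27, −0.038 and 0.12 with LPS+ISO, 0.16, −0.0086 and 0.082 with LPS+PGE2 and 0.10, −0.17 and 0.038 with LPS, on either side of medium in each. Hdac2 was called in no group, with its lowest mean at 4 h of −0.28 with LPS+ISO (95% interval −0.53 to −0.036, adjusted p 0.0789).

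Hdac6, a class IIb enzyme best known for deacetylating tubulin in the cytoplasm, had 4 h ratios of −0.60, −0.061 and −0.37 with LPS+ISO, of −0.58, −0.17 and −0.37 with LPS+PGE2 and of −0.51, −0.17 and −0.30 with LPS. Set 2 was nearest to medium and set 1 farthest from it in all 3. The means were −0.34, −0.38 and −0.33 (adjusted p 0.0064, 0.00297 and 0.00985). Without set 3 these were 0.18, 0.111 and 0.163.

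Of 3 sirtuin genes at 4 h, 2 were lower with LPS+ISO (15.6% of all genes lower), 1 was lower with LPS+PGE2 (16.5%), and 2 were lower (16.4%) and 1 higher (14.3%) with LPS. Sirt1, a nuclear deacetylase of histones and of NF-kB, had 4 h ratios of −1.14, −0.70 and −0.70 with LPS+ISO, of −1.18, −0.76 and −0.83 with LPS+PGE2 and of −0.92, −0.70 and −1.02 with LPS. With ISO alone the sets were 0.42, 0.046 and 0.012, and with PGE2 alone −0.21, −0.16 and 0.054, all above every set with LPS. Sirt1 fell 1.80-fold with LPS+ISO (adjusted p 4.38e-07), 1.90-fold with LPS+PGE2 (8.75e-08) and 1.84-fold with LPS (2.04e-07).

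Sirt3, a mitochondrial deacetylase, was called lower at 1 h in each group with LPS. Its 1 h sets were −1.02, −0.13 and −0.53 with LPS+ISO, −1.09, −0.25 and −0.43 with LPS+PGE2 and −0.70, −0.25 and −0.49 with LPS. Every set was below medium and set 1 was the lowest in each group. The means were −0.56 ± 0.45, −0.59 ± 0.44 and −0.48 ± 0.22 (SD, n = 3 each, adjusted p 0.0101, 0.00604 and 0.0256). With LPS the means at 2 h and 4 h were −0.45 and −0.44 (adjusted p 0.0242 and 0.0146), and with LPS+ISO at 4 h it was −0.37 (0.0462). With LPS+PGE2 at 4 h the sets were 0.13, −0.47 and −0.55, on either side of medium, and the test was not passed (0.124). The F test between times was not passed with LPS+ISO, LPS+PGE2 or LPS (unadjusted p 0.262, 0.185 and 0.981). Without set 3 none of the 6 calls was kept (adjusted p 0.142 to 0.539), and without set 2 those with LPS at 1 h, 2 h and 4 h (0.0614, 0.15 and 0.118) and with LPS+ISO at 4 h (0.184) were lost. With ISO and PGE2 alone, the 1 h means of −0.36 and −0.44 did not pass (0.33 and 0.386). Sirt2, a mainly cytoplasmic deacetylase, was called once, at 0.10, 0.11 and 0.25 in the sets with LPS at 4 h (mean 0.15, adjusted p 0.0275, and 0.0549 and 0.474 without set 2 and set 3).

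Of 3 acetyltransferase genes, Kat6b, a member of the MYST family that acetylates histone H3, fell furthest. Its 4 h ratios were −1.11, −0.63 and −0.97 with LPS+ISO, −1.34, −0.72 and −1.03 with LPS+PGE2 and −0.92, −0.94 and −1.11 with LPS. The sets with ISO alone (−0.17, 0.064 and 0.017) and PGE2 alone (−0.056, −0.11 and −0.089) were all higher than these. Kat6b was 1.87-fold lower with LPS+ISO (mean −0.90 ± 0.24, SD, n = 3, adjusted p 1.09e-05), 2.04-fold with LPS+PGE2 (−1.03 ± 0.31, 1.21e-06) and 1.98-fold with LPS (−0.99 ± 0.10, 2.49e-06). At 1 h its set 1 lay above medium with LPS+ISO (0.95), LPS+PGE2 (0.77), LPS (0.44), ISO (0.73) and PGE2 (0.74), whereas the other sets were between −0.087 and 0.26. None of these 1 h means passed the test.

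Set 1 at 1 h also stood apart for other genes. Hdac5 in set 1 was −0.70 with LPS+ISO, −0.61 with LPS+PGE2, −0.12 with LPS, −0.36 with ISO and −0.54 with PGE2, the lowest of its group in each. Sirt3 in set 1 was the lowest in each of the 5 groups as well, at −0.59 with ISO and −0.74 with PGE2. Whether these sets shared a culture or a medium RNA is not stated.

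Kat2b, a coactivator acetyltransferase of the SAGA-type complexes, had ratios of 0.54, 0.49 and 0.21 with ISO at 4 h and of 0.69, 0.54 and 0.19 with PGE2 at 4 h. All 6 sets were above medium, and the means of 0.41 ± 0.18 and 0.47 ± 0.25 (SD, n = 3 each) passed narrowly (adjusted p 0.0456 and 0.0381, 1.33-fold and 1.39-fold higher). Its 2 probes differed: with PGE2 the means were 0.78 for the probe at exactly 0 on 4 of 6 arrays and 0.16 for the probe with values on all, and with ISO 0.33 and 0.49. With PGE2 the mean was 0.068 with the treated RNA in Cy5 and 0.88 with it in Cy3, and with ISO 0.41 and 0.42. Of 6 arrays each, 1 with PGE2 and 2 with ISO lay below 0. On the probe with most values alone, the adjusted p was 0.0622 with ISO and 0.865 with PGE2. With the replicate set as a block it was 0.081 and 0.0692. The ISO call was also lost without any single set (0.056 to 0.443), and the PGE2 call without set 1 (0.134) or set 2 (0.594). With LPS+ISO, LPS+PGE2 and LPS at 4 h the means were 0.079, 0.019 and 0.16, none of them called. Kat2a was called once, lower with LPS+PGE2 at 1 h (sets −0.45, −0.16 and −0.35, mean −0.32, adjusted p 0.0289), and that call was lost without set 1 (0.117) or set 3 (0.493).

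Ezh2, which places the repressive methyl marks on lysine 27 of histone H3, had 4 h ratios of −1.10, −0.66 and −0.91 with LPS+ISO, of −0.96, −0.68 and −1.01 with LPS+PGE2 and of −0.99, −0.75 and −1.0 with LPS. With ISO alone the sets were 0.042, 0.0081 and −0.059, and with PGE2 alone 0.0051, 0.077 and −0.024. The sets with LPS did not overlap those without it. Ezh2 fell 1.86-fold with LPS+ISO (mean −0.89 ± 0.22, SD, n = 3, adjusted p 4.77e-13), 1.85-fold with LPS+PGE2 (−0.88 ± 0.18, 5.88e-13) and 1.88-fold with LPS (−0.91 ± 0.14, 2.42e-13), which was the lowest adjusted p of the 31 genes in each group. At 2 h the means were −0.13, −0.17 and −0.13 and did not pass (0.206, 0.0879 and 0.231). Ezh1, the other enzyme of this complex, had 4 h means of −0.067, −0.12 and −0.12 and was called in no group.

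Kmt2a, a methyltransferase of histone H3 lysine 4, had 4 h ratios of −0.17, −0.32 and −0.36 with LPS+ISO, of −0.35, −0.46 and −0.44 with LPS+PGE2 and of −0.28, −0.44 and −0.31 with LPS. All were below medium, with means of −0.29, −0.42 and −0.34 (adjusted p 0.0153, 0.000458 and 0.00351). The calls with LPS+ISO and LPS were lost without set 2 (0.103 and 0.0727) or set 3 (0.252 and 0.0691), and that with LPS+PGE2 was kept under every alternative tried. Its paralog Kmt2b had 0.33, 0.30 and 0.59 with LPS+ISO at 2 h (mean 0.41, adjusted p 0.0254) and −0.52, −0.22 and −0.41 with LPS+PGE2 at 4 h (mean −0.38, 0.0183), above medium in the first group and below it in the other. Both calls were lost without set 2 (0.137 and 0.0703) or set 3 (0.417 and 0.149).

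Setd3, a SET-domain enzyme that methylates a histidine of actin, had 4 h ratios of −0.58, −0.30 and −0.48 with LPS+ISO, of −0.37, −0.30 and −0.39 with LPS+PGE2 and of −0.44, −0.28 and −0.39 with LPS. The shift was small but its spread was narrow, with means of −0.45 ± 0.14, −0.35 ± 0.050 and −0.37 ± 0.083 (SD, n = 3 each, adjusted p 1.35e-07, 1e-05 and 4.26e-06). Setd6, which in human cells methylates the NF-kB subunit RelA, was called lower with LPS+PGE2 at 4 h, with sets of −0.37, 0.000 and −0.27 (mean −0.21, adjusted p 0.0321). Set 2 was at exactly 0, the gene had values other than 0 on 56 of 88 arrays, and the call was lost without set 1 (0.256) or set 3 (0.278). Setdb1, which methylates histone H3 lysine 9, was called in no group, and its 4 h mean with LPS was −0.30 (95% interval −0.55 to −0.043, adjusted p 0.0703).

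**Figure D3:**
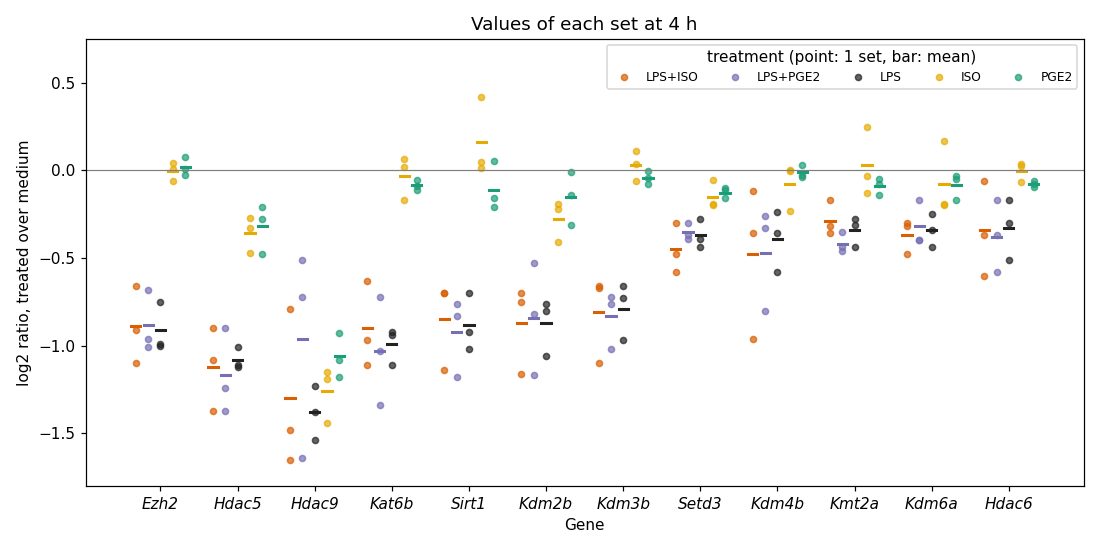
Log2 ratio of treated over medium RNA at 4 h (vertical axis) for the 12 genes that fell in all 3 groups with LPS (horizontal axis); points are sets, bars are means, colours are treatments. The sets of Ezh2, Kat6b, Sirt1 and Kdm3b with LPS lie below all sets of ISO and PGE2, whereas the sets of Hdac9 with the combinations overlap those of ISO and PGE2.

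Of 6 demethylase genes, Kdm2b, Kdm3b, Kdm4b and Kdm6a fell in each group with LPS at 4 h, where 15.6 to 16.5% of all genes were lower. Kdm3b, which acts on histone H3 lysine 9, had ratios of −1.10, −0.67 and −0.66 with LPS+ISO, of −1.02, −0.72 and −0.76 with LPS+PGE2 and of −0.97, −0.66 and −0.73 with LPS. Set 1 was the lowest in each group, and no set with ISO or PGE2 alone at 4 h was below −0.079. Kdm3b was 1.76-fold lower with LPS+ISO (adjusted p 9.77e-11), 1.78-fold with LPS+PGE2 (5.45e-11) and 1.73-fold with LPS (1.84e-10). It was already lower at 2 h, at −0.64, −0.35 and −0.51 with LPS+ISO, −0.72, −0.41 and −0.52 with LPS+PGE2 and −0.57, −0.39 and −0.36 with LPS. Those 9 sets were all below medium, with adjusted p of 5.59e-06, 1.24e-06 and 3.94e-05.

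Kdm2b, a demethylase of lysine 36 that also carries a variant Polycomb repressive complex to unmethylated CpG islands, had 4 h ratios of −0.70, −0.75 and −1.16 with LPS+ISO, of −0.53, −0.82 and −1.17 with LPS+PGE2 and of −0.76, −0.80 and −1.06 with LPS. Set 3 was the lowest in each. The means were −0.87 ± 0.25, −0.84 ± 0.32 and −0.87 ± 0.16 (SD, n = 3 each, adjusted p 1.59e-10, 3.76e-10 and 1.47e-10). At 2 h the means were −0.34, −0.36 and −0.30 (0.00312, 0.00165 and 0.00792), and without set 2 the 2 h calls with LPS+ISO and LPS were lost (0.066 and 0.0851). With ISO alone at 4 h its sets of −0.19, −0.22 and −0.41 were all below medium and missed the threshold (mean −0.28, adjusted p 0.056).

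Kdm4b, an enzyme for lysines 9 and 36 of histone H3, had 4 h ratios of −0.96, −0.12 and −0.36 with LPS+ISO, of −0.80, −0.26 and −0.33 with LPS+PGE2 and of −0.58, −0.24 and −0.36 with LPS. Set 1 was the lowest in each. The means of −0.48, −0.47 and −0.39 passed (adjusted p 0.00422, 0.00526 and 0.0198), and without set 3 they did not (0.0734, 0.0755 and 0.198). Kdm6a, which removes methyl groups from lysine 27, had −0.30, −0.32 and −0.48 with LPS+ISO, −0.17, −0.40 and −0.40 with LPS+PGE2 and −0.25, −0.34 and −0.44 with LPS. Every set was below medium (means −0.37, −0.32 and −0.34, adjusted p 0.011, 0.0273 and 0.018). The 3 calls were lost without set 2 (0.113, 0.277 and 0.177) and without set 3 (0.19, 0.238 and 0.228). Kdm5c and Kdm5d, demethylases of lysine 4 from the X and Y chromosomes, were called in no group, and their 4 h means in the groups with LPS lay between −0.12 and 0.046.

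Of 4 arginine methyltransferase genes, 2 rose with LPS+ISO (14.4% of all genes higher), 2 with LPS+PGE2 (15.2%) and 1 with LPS (14.3%) at 4 h, and none fell in these groups. Prmt5, which makes symmetric dimethylarginine, had 4 h ratios of 0.39, 0.10 and 0.30 with LPS+ISO and of 0.50, 0.18 and 0.32 with LPS+PGE2. All 6 sets were above medium, with means of 0.26 ± 0.15 and 0.33 ± 0.16 (SD, n = 3 each, adjusted p 0.00468 and 0.000428). Both of its probes were above 0 in these groups, at 0.31 and 0.21 with LPS+ISO and 0.37 and 0.29 with LPS+PGE2. With LPS alone the mean of 0.13 was not called. Without set 3 the adjusted p with LPS+ISO was 0.125.

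Prmt2 had 0.20, 0.14 and 0.26 with LPS+ISO at 4 h and 0.15, 0.16 and 0.29 with LPS+PGE2 (means 0.20 and 0.20, adjusted p 0.00633 and 0.00612, and 0.133 and 0.176 without set 3). Its second probe was at exactly 0 on all 6 arrays of both groups, so these means are drawn toward 0, and the first probe alone averaged 0.40 and 0.40. With LPS alone at 4 h the sets were 0.19, 0.058 and 0.17, also above medium. Their mean of 0.14 did not pass (adjusted p 0.0641), and the first probe averaged 0.28. Each combination differed from LPS by 0.061, which was not called. With ISO at 4 h the sets were 0.15, 0.62 and 0.14 (mean 0.30, adjusted p 0.00138). Set 2 stood above the others, 5 of the 6 arrays were at 0 for the second probe, and without set 2 the mean was 0.14 (0.329). The first probe alone had values on all 6 arrays and averaged 0.29, and the call was kept on it. Prmt3, which methylates a ribosomal protein, was called higher with LPS at 4 h (0.16, 0.20 and 0.12, adjusted p 0.0232) and lower with ISO at 4 h (−0.30, −0.15 and −0.11, adjusted p 0.0478). The call with LPS was lost without set 2 (0.251) or set 3 (0.0753), and that with ISO without any single set (0.125 to 0.257) and also when exact zeros were left out as missing (0.082). Prmt1, the main enzyme for asymmetric dimethylarginine, was called in no group, with 4 h means of 0.11 with LPS+ISO, 0.16 with LPS+PGE2 and 0.013 with LPS.

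The 8 genes called in no group were Ezh1, Hdac2, Hdac3, Hdac7, Kdm5c, Kdm5d, Prmt1 and Setdb1. At 4 h their 95% intervals reached no lower than −0.53 and no higher than 0.33 with LPS+ISO, −0.48 and 0.37 with LPS+PGE2, −0.55 and 0.23 with LPS, −0.39 and 0.50 with ISO and −0.34 and 0.30 with PGE2. Changes of 2-fold thus lay outside the intervals at that time. For Hdac7 this says little, because it was at exactly 0 on 3 of 6 arrays with LPS at 4 h, and zeros draw its values toward 0.

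Whether a response differed between 1, 2 and 4 h was tested for each treatment. Of the 31 genes, 12 differed with LPS+ISO (17.6% of all genes), 12 with LPS+PGE2 (17.8%), 9 with LPS (18.5%), 1 with ISO (0.589%) and 0 with PGE2 (0.00951%, 4 of the 31 at an unadjusted p under 0.05). Without set 3 the counts were 6 with LPS+ISO, 5 with LPS+PGE2 and 4 with LPS, and without set 1 or set 2 they were 10 to 14 with the combinations and 9 to 11 with LPS. With ISO no gene differed when any single set was left out, the group fitted alone gave 4 with LPS+ISO, and scaling gave 3 with PGE2. Again the shares of all genes under these alternatives are not given. Ezh2, Hdac5, Hdac9, Kat6b, Kdm2b, Kdm3b, Setd3 and Sirt1 differed in all 3 groups with LPS. Ezh2 had means of 0.049, −0.13 and −0.89 at 1, 2 and 4 h with LPS+ISO, of 0.0014, −0.17 and −0.88 with LPS+PGE2 and of −0.07, −0.13 and −0.91 with LPS. Ezh2 was called at 4 h, and Kdm3b at 2 h and 4 h; whether the genes differ in timing was not tested. Hdac9 was the gene that differed between times with ISO, with means of −0.034, −0.30 and −1.26.

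**Figure D4:**
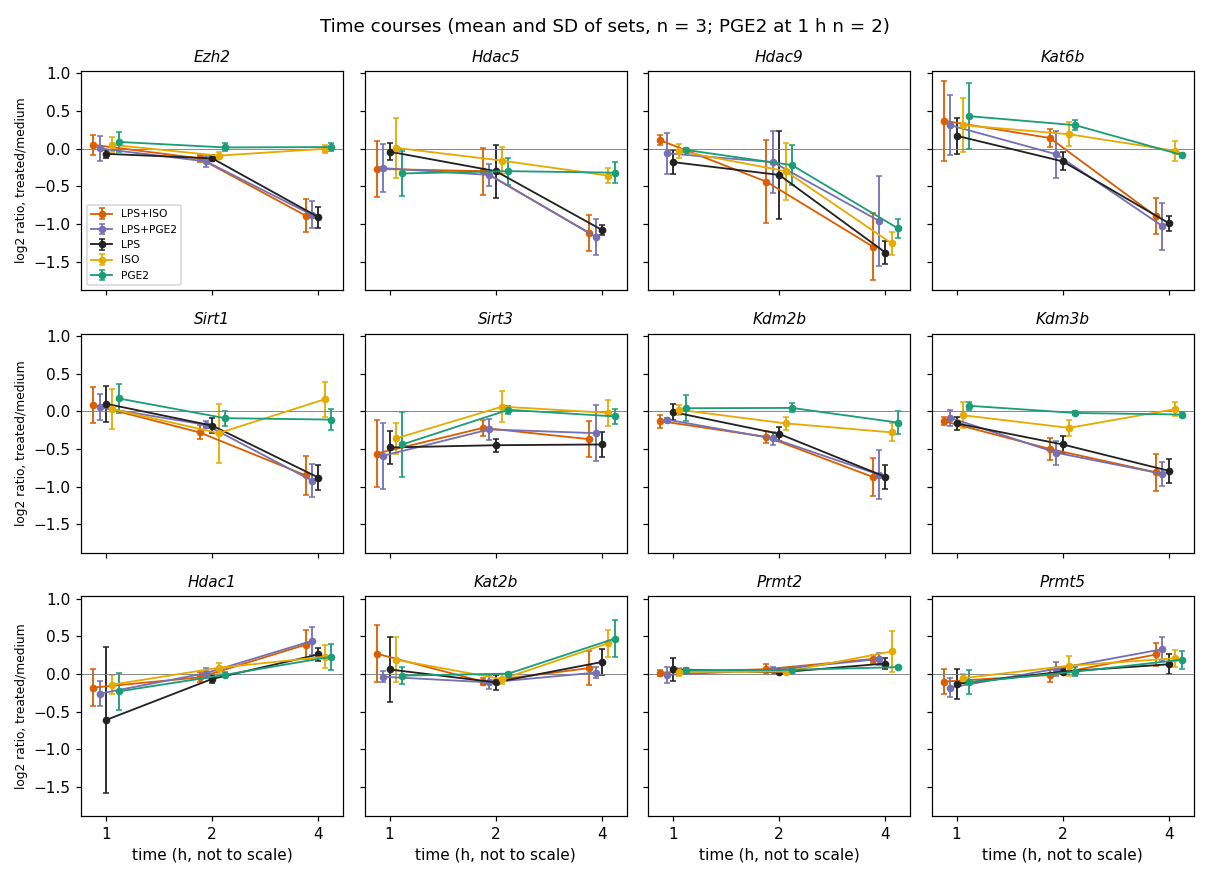
Mean log2 ratio of treated over medium RNA (vertical axis) at 1, 2 and 4 h (horizontal axis, evenly spaced) for 12 genes and 5 treatments; bars are the SD of the sets (n = 3, and n = 2 for PGE2 at 1 h). In the groups with LPS, Ezh2 is near medium until 2 h and low at 4 h, and Kat6b and Sirt1 are lowest at 4 h. The wide bar of Hdac1 at 1 h is the group with set 1 at −1.72.

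The combinations asked whether a second ligand alters the response to LPS. The labels name lipid binding protein for LPS alone and not for the combinations. A part of that protein and one of the second ligand cannot be told apart here. None of the 31 genes was called between LPS+ISO and LPS at 1 h (0.0190% of all genes), 2 h (0% of all genes) or 4 h (0.0951%), or between LPS+PGE2 and LPS at 1 h (0%), 2 h (0%) or 4 h (0.0285%). At an unadjusted p under 0.05 there were 0, 0 and 1 of them for LPS+ISO and 0, 0 and 1 for LPS+PGE2. These were Prmt3, whose 4 h mean was −0.056 with LPS+ISO and 0.16 with LPS (difference −0.21, 95% interval −0.37 to −0.058, p 0.00856, adjusted p 1), and Setd6, with −0.21 with LPS+PGE2 and 0.09 with LPS (difference −0.30, interval −0.53 to −0.081, p 0.00921, adjusted p 0.993). Hdac9 had the largest upward difference at 4 h, 0.43 for LPS+PGE2 over LPS (interval −0.13 to 0.99). For Ezh2 the differences from LPS were 0.021 with LPS+ISO (−0.17 to 0.21) and 0.029 with LPS+PGE2 (−0.16 to 0.22).

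Across the 31 genes the median of the interval's half-width was 0.28 in each of the 6 comparisons. These intervals come from the fit that does not pair the sets. At 4 h the interval lay within 0.5 of 0 for 26 genes with LPS+ISO and 27 with LPS+PGE2, and within 1 of 0 for all 31. A 2-fold difference between a combination and LPS thus lay outside the intervals, while the intervals of many genes include smaller ones. For Hdac7 and Setd6, with values other than 0 on 56 of 88 arrays, zeros draw the differences toward 0. ISO and PGE2 were also set against each other over the 3 times. None of the 31 genes was called (0% of all genes), and none had an unadjusted p under 0.05.

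**Figure D5:**
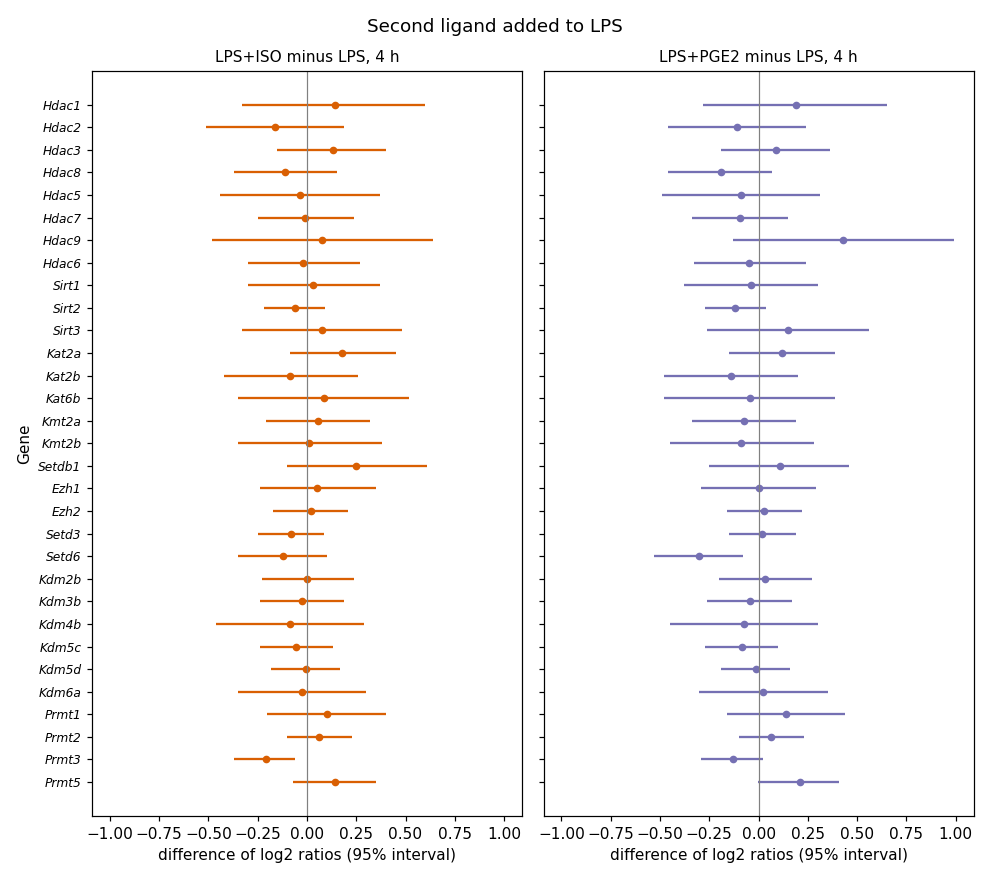
Difference of log2 ratios, combination minus LPS alone, at 4 h (horizontal axis) for the 31 genes (vertical axis), with LPS+ISO on the left and LPS+PGE2 on the right; points are differences and lines 95% intervals. Intervals cross 0 except for Prmt3 with LPS+ISO and Setd6 with LPS+PGE2, neither of which passed after adjustment.

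Genes whose products work in complexes with these enzymes were listed and counted at 4 h. Of all genes, 15.6% were lower and 14.4% higher with LPS+ISO, 16.5% and 15.2% with LPS+PGE2, and 16.4% and 14.3% with LPS. A difference of any list from these shares was not tested. Of 16 genes of Polycomb complexes, 3 were higher and 7 lower with LPS+ISO, 3 higher and 7 lower with LPS+PGE2, and 2 higher and 8 lower with LPS. When single sets were left out, the lower genes numbered 3 to 9, 4 to 9 and 3 to 8, fewest without set 3 (with LPS+PGE2 also without set 2), and the higher ones 2 to 3 in each group. Suz12, a core partner of Ezh2, had means of −0.54 ± 0.27 with LPS+ISO, −0.49 ± 0.16 with LPS+PGE2 and −0.51 ± 0.19 with LPS (SD, n = 3 each, adjusted p 8.26e-05, 0.000252 and 0.000173). Eed, another core partner, had −0.28, −0.21 and −0.27 (0.00261, 0.0216 and 0.00335), and these calls were lost without set 2 or set 3 (0.0844 to 0.437). The core subunits Rbbp4 (−0.10, −0.13 and −0.0056) and Rbbp7 (−0.032, 0.013 and −0.087) were not called in any of these groups. Suz12, Eed, Rbbp4 and Rbbp7 were named for their role, after their values had been seen. Unlike Suz12 and Eed, Jarid2, an accessory subunit that helps target Ezh2, was 2.63-fold, 3.08-fold and 2.54-fold higher (1.19e-08, 4.53e-10 and 2.2e-08). Phc2 was higher as well (1.51-fold, 1.54-fold and 1.61-fold). Cbx8, a chromodomain subunit that reads the mark Ezh2 places, was 2.24-fold, 2.36-fold and 2.45-fold lower (4.16e-07, 1.37e-07 and 5.88e-08), and Cbx2 was 1.46-fold, 1.49-fold and 1.62-fold lower, which was lost without set 2 or set 3 (0.061 to 0.502).

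The next lists stand beside 15.6 to 16.5% of all genes lower and 14.3 to 15.2% higher in these groups. Of 11 genes of deacetylase complexes, 3 were higher and 1 lower with LPS+ISO, 2 higher and 1 lower with LPS+PGE2 and 2 higher and 2 lower with LPS. Without 1 set, 1 to 2 were higher with LPS and 2 in each combination, and 1 to 2, 1 to 3 and 1 to 3 were lower. Members of the same complex moved in opposite directions: Sin3a, the scaffold of the Sin3 complex that holds Hdac1 and Hdac2, was 1.86-fold, 1.83-fold and 2.01-fold lower (2.9e-08, 4.78e-08 and 2.17e-09), and its partner Sap30 1.92-fold, 2.06-fold and 2.47-fold higher (8.4e-11, 8.79e-12 and 3.83e-14). Of 15 genes listed under acetyltransferase complexes, none was higher, and 7 were lower with LPS+ISO, 8 with LPS+PGE2 and 8 with LPS. Among them were Ing2 (means −1.07, −1.0 and −1.03) and Ing4 (−0.81, −0.81 and −0.94), which read methylated lysine 4. Ing2 and Ing1, also lower in each group, are subunits of Sin3 deacetylase complexes. The counts of this list thus do not describe acetyltransferase complexes alone. Without set 1, 1 gene of this list was higher with LPS+ISO and 2 with LPS+PGE2. Of 9 genes of lysine 4 methyltransferase complexes, none was higher and 5 were lower in each group, with Paxip1 lowest (−0.56, −0.62 and −0.64). Without set 3 the lower genes of that list numbered 3, 4 and 3, and without set 2 there were 3 with LPS.

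For the last lists the shares of all genes were again 15.6 to 16.5% lower and 14.3 to 15.2% higher. Of 14 genes of histone readers and DNA methylation enzymes, none was higher and 6 were lower with LPS+ISO, 1 was higher and 7 were lower with LPS+PGE2, and none was higher and 4 were lower with LPS. Without 1 set the lower genes numbered 5 to 7, 3 to 8 and 3 to 6, with 3 for LPS+PGE2 without set 3, and the higher gene with LPS+PGE2 was lost without set 1 or set 3. Brd3, a bromodomain reader of acetylated histones, was 2.01-fold, 2.12-fold and 2.07-fold lower, and Uhrf1, which guides the maintenance methyltransferase Dnmt1, 1.97-fold, 2.0-fold and 2.14-fold. Of 17 histone enzymes with other symbols, 2 were higher and 5 lower with LPS+ISO, 3 higher and 4 lower with LPS+PGE2 and 3 higher and 5 lower with LPS. Without 1 set, 1 to 2 genes of this list were higher in each group, and 2 to 5, 3 to 4 and 3 to 6 were lower, with 2 for LPS+ISO without set 3. The lysine 9 methyltransferase Suv39h2 was 1.49-fold, 1.5-fold and 1.62-fold lower, and the ubiquitin protease Usp16, which acts on histone H2A, was 1.29-fold, 1.24-fold and 1.24-fold higher.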

How the data were processed

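The authors deposited 1 table of log2 ratios for each probe on each array. How images were read and normalized and what exact zeros mean were not given in the sources used here. Its log base was inferred from the values, whose largest absolute value of 6.64 is log2 of 100, and the median was 0 in all 88 columns. Signal over background is unknown.

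Ratios were turned to treated over medium by the dye labels, the 2 arrays of a dye-swap pair were averaged (44 pairs), and probes were averaged per gene (13260 probes of 1 gene, 10518 genes). Zeros draw means toward 0. Current symbols came through Entrez identifiers and RefSeq. Across probes, the 2 arrays of a pair correlated at 0.2 to 0.85 with LPS and at −0.58 to 0.32 without it.

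limma 3.58.1 (R 4.3.3) fitted a mean per group over all pairs (29 residual degrees of freedom) with eBayes. Tests were two-sided, medium being on each array, with Benjamini-Hochberg adjustment over all genes and a threshold of 0.05. Differences between times, ISO against PGE2 and departures from the sum used F tests. The fit was checked on simulated data. Alternatives were zeros as missing, the fit on a group alone, the probe with most values, genes with values on 44 arrays, scaling, the replicate block (statmod 1.5.0) and leaving out each set. In each comparison of a combination with LPS, deviations of same-numbered sets correlated (0.20 to 0.60), so the numbers pair the samples. Between any groups of the same time, such correlations ran from 0.03 to 0.77 (median 0.36). Unless the replicate block is named, p-values and intervals come from the fit without this pairing. Blocking left 0 calls between the combinations and LPS.

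Genes, partner lists and tests were chosen with earlier results of these data known. By the rule, all 31 genes could be named, with set values for those past the threshold and for Ezh2 and Hdac3, and up to 2 highest and 2 lowest genes from each partner list.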

Additional observations from a re-analysis of the deposited data

Results flagged for a closer look

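These results stood out because the response of a gene differed between 1, 2 and 4 h within a treatment, by limma's F test with adjustment over all genes. Ezh2 had an adjusted p of 2.4e-09 with LPS+ISO, 9.54e-09 with LPS+PGE2 and 6.83e-09 with LPS. Hdac5 had an adjusted p of 0.00185 with LPS+ISO, 0.00105 with LPS+PGE2 and 0.000393 with LPS. Hdac9 had an adjusted p of 0.000784 with LPS+ISO, 0.0324 with LPS+PGE2 and 0.00223 with LPS. Kat6b had an adjusted p of 4.68e-05 with LPS+ISO, 3.88e-05 with LPS+PGE2 and 0.000304 with LPS. Kdm2b had an adjusted p of 2.67e-05 with LPS+ISO, 3.95e-05 with LPS+PGE2 and 2.35e-06 with LPS. Kdm3b had an adjusted p of 3.73e-05 with LPS+ISO, 6.89e-06 with LPS+PGE2 and 0.000121 with LPS. Setd3 had an adjusted p of 5.7e-05 with LPS+ISO, 0.000676 with LPS+PGE2 and 0.00524 with LPS. Sirt1 had an adjusted p of 0.000252 with LPS+ISO, 7.61e-05 with LPS+PGE2 and 8.63e-05 with LPS. In each of these 8 genes the mean was lowest at 4 h. With ISO alone Hdac9 had an adjusted p of 0.0433.

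Hdac6 differed between times with LPS+ISO (adjusted p 0.0297) and LPS+PGE2 (0.0138), and so did Prmt5 (0.0223 and 0.00142), whose mean was highest at 4 h. Kdm6a (0.0399) and Kmt2b (0.0138, with its mean above 0 at 2 h) differed with LPS+ISO, and Kdm4b (0.0385) and Kmt2a (0.0428) with LPS+PGE2. Hdac1 differed with LPS (adjusted p 0.018), where set 1 at 1 h was −1.72 and the other sets of that group were −0.063 and −0.036. Whether the treatments differ from one another in these time courses was not tested.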

How the results depend on the processing

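No called gene changed direction under any alternative tried. Of the 68 calls, 67 were kept with zeros as missing, 67 among genes with values on 44 arrays, 65 on the probe with most values, 65 with the replicate block, 53 with scaling and 10 with each group fitted alone; 61, 46 and 35 were kept without set 1, set 2 and set 3. Fitting each group alone (2 residual degrees of freedom) left 0 genes at 1, 2 and 4 h with LPS+ISO, 0, 0 and 2 with LPS+PGE2, 0, 0 and 8 with LPS, 0 at 4 h with ISO and 0 at 4 h with PGE2, and 4 between times with LPS+ISO and 0 with ISO. Scaling gave 5 with LPS+PGE2 at 2 h, 1 with ISO at 2 h, 2 and 7 with PGE2 at 2 and 4 h and 3 between times with PGE2. The shares of all genes called under the alternatives are not given in this section. The counts under scaling and the other alternatives thus do not set the histone-modifying enzymes apart from other genes. The replicate block gave 2 with LPS+ISO at 1 h and 1 with PGE2 at 4 h, and ended the calls of Hdac8 with LPS+ISO and of Kat2b with ISO and PGE2 at 4 h; it changed no other call. The probe with most values gave 1 with PGE2 at 4 h, and genes with values on 44 arrays gave 2 with LPS+ISO at 1 h. The cause of these shifts was not tested.

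Without 1 set, counts at 1, 2 and 4 h ranged over 0 to 2, 2 to 7 and 8 to 17 with LPS+ISO, 0 to 2, 2 to 5 and 9 to 21 with LPS+PGE2, 1 to 2, 1 to 6 and 8 to 16 with LPS, 1 to 6 at 4 h with ISO and 0 to 1 at 4 h with PGE2. Between times they were 6 to 11 with LPS+ISO, 5 to 14 with LPS+PGE2, 4 to 11 with LPS and 0 to 0 with ISO. Shares of all genes are not given beside these ranges, so the ranges do not set the histone-modifying enzymes apart either. Combinations against LPS stayed at 0 calls in every alternative tried. Of the partner lists, genes lower at 4 h in Polycomb complexes numbered 3 to 9 with LPS+ISO, 4 to 9 with LPS+PGE2 and 3 to 8 with LPS. Signal over background is not in the table, so weak probes could not be told from strong ones.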
